A study of Homo sapiens with 4 samples.

Results

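The Ikaros zinc finger family is a set of 5 genes, IKZF1, IKZF2, IKZF3, IKZF4 and IKZF5, taken by name from the annotation of GRCh38.p14, which lists 20037 protein-coding genes. H3K27Ac occupancy was profiled by ChIPmentation, a ChIP-Seq method in which the Tn5 transposase adds the sequencing adapters, in the MOLM13 line, cultured human AML cells that carry MLL1-r. There was 1 library of control cells, whose label gives no treatment while the protocol names a DMSO arm, and 1 library from a culture given the Menin inhibitor SNDX-50469 at 500 nM for 16 h. The 2 input libraries were not analysed here. Each library is represented by its own list of broad peaks, and a single cell line with 1 library per condition gives no replicate check, so values are set side by side with no test.

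Ikaros family proteins bind DNA through zinc fingers near the N-terminus and pair with each other through zinc fingers at the C-terminus. They recruit corepressors, including the NuRD chromatin remodelling complex, and are known mainly for the development of lymphoid cells, although Ikaros is also expressed in myeloid progenitors and in AML. H3K27Ac is an acetyl mark on histone H3 at active promoters and enhancers, and lenalidomide and related drugs direct the cereblon ubiquitin ligase to Ikaros and Aiolos, the proteins of IKZF1 and IKZF3.

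Promoter bases are shown first, because the members differed in whether an annotated start lay under a peak. RefSeq promoter entries of the GRCh38.p14 build matched 4 members with 10 starts, and IKZF3 had none. One start per member is shown, from 180 to 41 bases before it, 5′ to 3′ on the strand of the gene. Capitals mark the GC box GGGCGG or the ETS core CGGAAG on either strand. The IKZF1 start at 50304716 lay in a peak of both lists and the IKZF5 start at 123008795 in a SNDX-50469 peak. The IKZF4 start at 56007504 lay 2 bp before a control peak and the IKZF2 start at 213150437 inside one.
IKZF1, chr7:50304536-50304675, plus strand: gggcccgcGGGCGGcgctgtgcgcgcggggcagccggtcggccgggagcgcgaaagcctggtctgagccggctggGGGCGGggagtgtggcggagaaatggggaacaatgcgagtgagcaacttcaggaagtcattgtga
IKZF5, chr10:123008836-123008975, minus strand: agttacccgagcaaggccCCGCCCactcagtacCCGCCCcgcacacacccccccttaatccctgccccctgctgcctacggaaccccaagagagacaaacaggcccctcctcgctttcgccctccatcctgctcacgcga
IKZF4, chr12:56007324-56007463, plus strand: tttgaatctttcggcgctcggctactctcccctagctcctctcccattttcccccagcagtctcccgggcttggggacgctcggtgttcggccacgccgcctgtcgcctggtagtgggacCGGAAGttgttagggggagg
IKZF2, chr2:213150478-213150617, minus strand: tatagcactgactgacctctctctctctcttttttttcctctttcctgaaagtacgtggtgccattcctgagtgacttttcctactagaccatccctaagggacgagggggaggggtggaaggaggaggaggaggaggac

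The GC content of these windows was 70.0% at IKZF1, 65.7% at IKZF5, 63.6% at IKZF4 and 51.4% at IKZF2, beside a median of 58.6% over 35116 promoter windows. The IKZF1 window held 16 CpG dinucleotides, the IKZF4 window 11, the IKZF5 window 9 and the IKZF2 window 2, beside a median of 6. The GC box stood in the IKZF1 and IKZF5 windows and in 32.4% of all windows, and the ETS core in the IKZF4 window and in 9.57% of all windows. The RUNX core TGTGGT, the Ikaros core TGGGAA and the CCAAT box were also searched on both strands and were not in these 4 windows. They stood in 6.15%, 12.5% and 22.8% of all windows. Starts of the members that are not shown did hold some of the searched strings. The RUNX core stood before the IKZF1 start at 50308700 and the outermost IKZF2 start, 213152456. Before the IKZF4 start at 56021043 stood the CCAAT box, and before the IKZF5 start at 123008687 the GC box. Composition differed between starts of 1 gene. The IKZF1 starts at 50308700 and 50319048 had 44.3% and 36.4% GC with 2 and 0 CpG. The IKZF4 starts at 56020905 and 56021043 had 58.6% and 65.7% with 1 and 2 CpG. The IKZF5 start at 123008687 had 64.3% with 17 CpG, and the outermost IKZF2 start 43.6% with 3 CpG. A match is a string of letters and not a measured binding site.

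The lists differed in size across the genome, and this bears on every value that follows. The control list held 245875 peaks over 224 Mb and the SNDX-50469 list 54061 peaks over 29.4 Mb. The smallest −log10 p was 2.68 among control peaks and 3.93 among SNDX-50469 peaks, so that weak peaks were listed for control and not for SNDX-50469. Read totals were not given, so the depth behind a peak is unknown. What a gene kept is expressed here as its kept share, the positions under peaks of both libraries in percent of those under control peaks. Over gene bodies extended by 5 kb at each end, the median kept share was 2.37% over the 15634 genes with control cover, and 11.6% of their summed control length was kept.

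The family covered 102115 bp in control and 11970 bp after SNDX-50469, and 10970 bp, a kept share of 10.7%, were common to both. IKZF1 held 84.6% of the control length and 66.9% of the SNDX-50469 length, so the family sum is mostly this gene. Covered length was lower after SNDX-50469 at 4 of 5 members, IKZF1, IKZF2, IKZF3 and IKZF4, and 98.1% of genes with control cover were lower. It was higher at 1 member, IKZF5, and at 1.84% of genes. None of the control length was kept at 1 member, IKZF2, and at 44.8% of genes. All of it was kept at 1 member, IKZF5, and at 0.0704% of genes. A lower covered length was thus the rule in these lists, and a kept share of 0 was common.

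**Figure D1:**
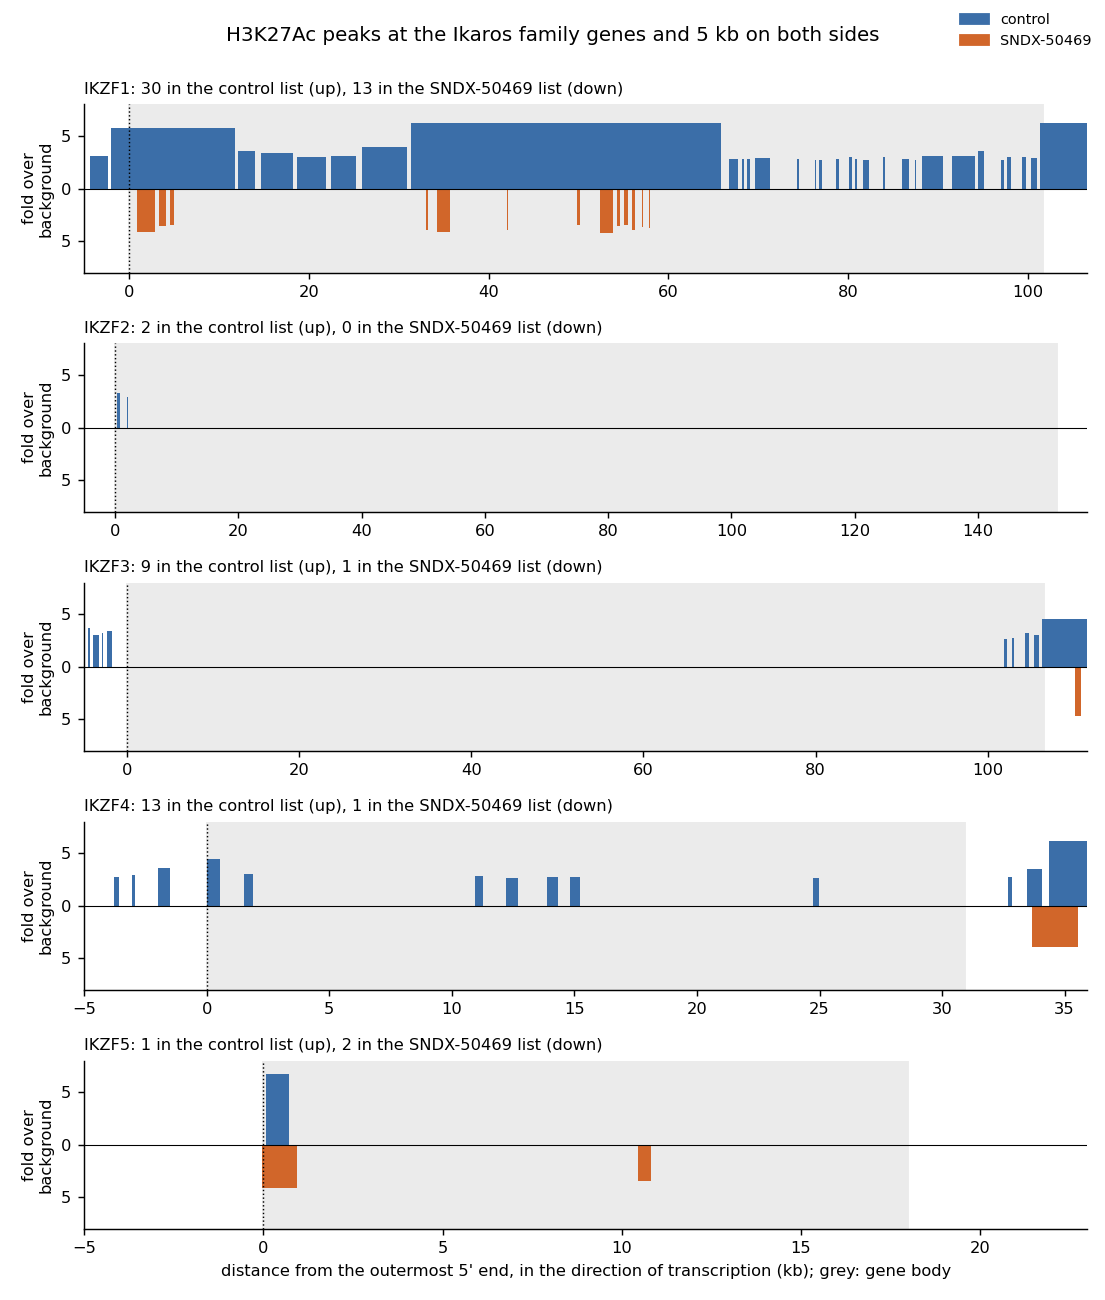
H3K27Ac peaks at each member, by distance from the outermost 5′ end in kb (x axis) and fold over the background of the peak's own library (y axis), with control peaks drawn upward in blue and SNDX-50469 peaks downward in orange. Very narrow peaks are drawn at a minimum width so that they can be seen; the 30 control peaks of IKZF1 span the gene, whereas IKZF5 has 1 control peak and 2 SNDX-50469 peaks.

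At the 5′ end, taken as the outermost annotated end with 5 kb on both sides, all 5 members had control cover and 67.3% of genes with a known strand did. After SNDX-50469, 2 members, IKZF1 and IKZF5, had cover there, and 37.4% of genes did. Summed over the family, 13697 bp were covered around the 5′ ends in control and 4275 bp after treatment, with 29.0% kept. Over the rest of the genes with their 5 kb flanks the sums were 88418 and 7695 bp, with 7.92% kept. This order rested on IKZF1: without it, 14.2% was kept at the 5′ ends and 20.7% over the rest. The 14.2% was the 655 bp of IKZF5 alone. The 20.7% lay wholly past the 3′ ends, 748 bp at IKZF3 and 1565 bp at IKZF4, the latter around the start of RPS26. With the innermost annotated starts in place of the outermost ends, the family kept 4.99% at the 5′ ends and 11.6% over the rest. The same sums over all genes with such control cover gave 20.4% at the 5′ end and 7.88% over the rest.

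**Figure D2:**
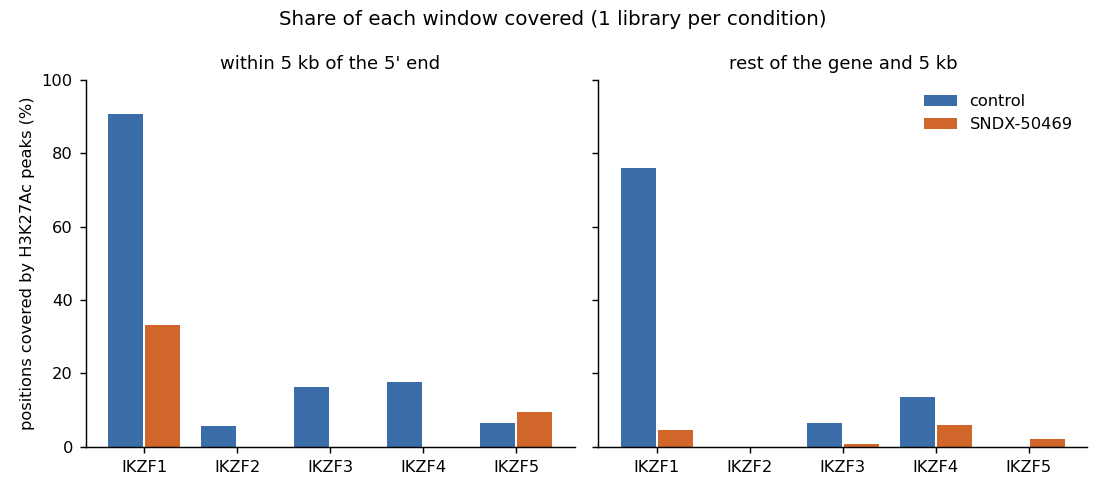
Percent of positions covered by H3K27Ac peaks in each member (y axis), within 5 kb of the 5′ end (left) and over the rest of the gene and 5 kb (right), with 1 bar per library. IKZF1 stands at 90.8% in control and 33.1% after SNDX-50469 on the left and at 76.0% and 4.61% on the right, and IKZF5 is the member with a higher bar after treatment in both panels.

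IKZF1 encodes Ikaros, the founding member, and lies on the plus strand at chr7:50303455-50405101. In control, 30 peaks covered 86343 bp, 77.3% of the gene with its flanks, and this length ranked 183 among the 20037 genes. After SNDX-50469, 13 peaks covered 8002 bp, 7.17% of the same window. All 13 lay inside control peaks, and the kept share was 9.27%. Of the 30 control peaks, 3 (10.0%, Wilson 95% interval 3.46 to 25.6) shared at least 1 bp with the SNDX-50469 list. These 3 were the widest of the 30. Among them, chr7:50404850-50417806 shared positions only beyond the 5-kb flank, and these are not part of the 8002 bp.

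The strongest control peak over IKZF1 spanned 34580 bp at chr7:50334776-50369355, from 31.3 to 65.9 kb inside the gene. Its fold over background was 6.28, rank 3585 in its list, and 13.6% of its length was covered after SNDX-50469. The peak over the 5′ end, chr7:50301420-50315207, was 13788 bp wide with a fold of 5.75, and 24.0% of it was covered. Another wide peak began inside the gene and ran past its 3′ end, chr7:50404850-50417806, with a fold of 6.24 and 23.0% covered. The other 27 control peaks had no covered position after SNDX-50469. In control, 6 of the 30 reached the −log10 p of the weakest SNDX-50469 peak.

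The SNDX-50469 peaks of IKZF1 stood in 2 places. Near the start, 3 peaks lay between 0.862 and 4.99 kb from the 5′ end, and the widest, chr7:50304317-50306344, was 2028 bp with a fold of 4.17. It held the start at 50304716, whose upstream bases are printed above. The other 10 lay between 33.1 and 57.9 kb inside the gene, all within the 34580-bp control peak. The strongest of them, chr7:50355869-50357309, had a fold of 4.28, rank 5720 in its list. Between these places, from 5 to 33 kb, the control list covered 25068 bp and the SNDX-50469 list 0 bp, and from 58 kb to the end of the gene it covered 22195 and 0 bp. From 0 to 5 kb, 66.3% of the control length was kept, and from 33 to 58 kb 18.8%. These stretches were drawn after the peaks were seen.

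Annotated starts of IKZF1 differed in the same way. The outermost start, 50303455, and those at 50308700 and 50319048 lay in control peaks and outside the SNDX-50469 peaks, at 862, 257 and 10605 bp from the nearest one. The start at 50304716 lay in a peak of both lists.

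Both flanks of IKZF1 carried peaks beyond 5 kb. Upstream, from 5 to 100 kb, 24 control peaks covered 58011 bp and 1 SNDX-50469 peak covered 99 bp, a kept share of 0.171%. The median kept share of the same flank was 2.04% over the 16179 genes with control cover there. The strongest control peak within 100 kb of the gene lay here, chr7:50280036-50286111, 6076 bp wide and 17.3 to 23.4 kb before the 5′ end. Its fold was 7.82, rank 1203, and no position of it was covered after SNDX-50469. Its neighbour, chr7:50260428-50279127, was 18700 bp wide with a fold of 6.70 and held the 99 bp. Downstream, 18755 bp were covered in control and 2986 bp after SNDX-50469, with 15.9% kept beside a median of 2.65% over 16172 genes. Both flank medians take in genes with any control cover in the flank, however short. The 2986 bp lay in the control peak that runs past the 3′ end, and the downstream control cover was spread over 16 peaks.

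With 100 kb on both sides, IKZF1 covered 163109 bp in control and 11087 bp after SNDX-50469, and 6.80% was kept. The nearest protein-coding gene on the downstream side was FIGNL1, a DNA repair gene 39.0 kb away, and its 5′ end covered 5419 bp in control and 0 bp after treatment. On the upstream side SPMIP7 lay 144 kb away and had no cover at its 5′ end in either list. When control peaks within 12.5 kb of each other were joined, IKZF1 fell in 1 region of 271 kb with 74 peaks. By fold times length it ranked 154 of 24668 control regions. In the SNDX-50469 list the gene held 2 regions, of 4.13 and 24.9 kb, at ranks 2153 and 1435 of 18541.

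**Figure D3:**
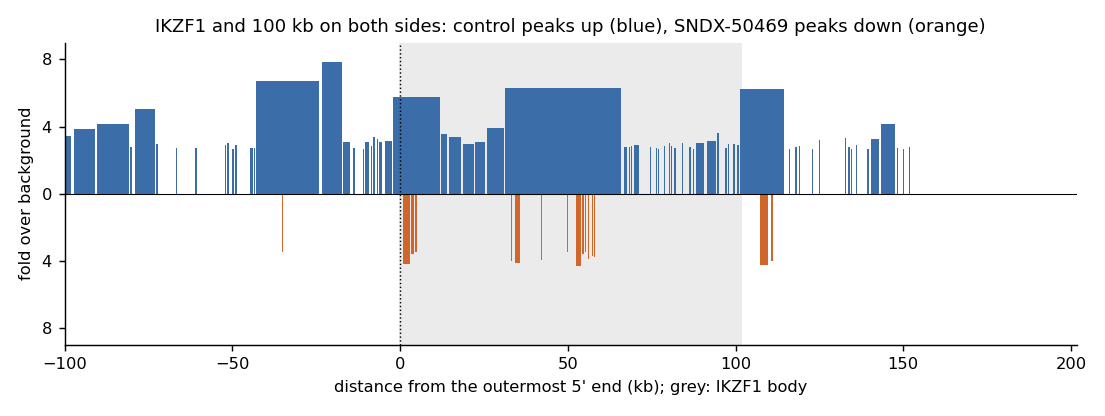
H3K27Ac peaks at IKZF1 and 100 kb on both sides, by distance from the outermost 5′ end in kb (x axis) and fold over the background of the peak's own library (y axis), control upward in blue and SNDX-50469 downward in orange, very narrow peaks drawn at a minimum width. Upstream of the gene the 2 strong control peaks at folds of 7.82 and 6.70 stand opposite 1 SNDX-50469 peak of 99 bp.

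IKZF3 encodes Aiolos, which is best known in B cells and plasma cells, and lies on the minus strand at chr17:39757715-39864312. In control, 9 peaks covered 8565 bp of the gene with its flanks, and after SNDX-50469 1 peak covered 748 bp, all of it in control cover, a kept share of 8.73%. No peak of either list lay over the body between 39762460 and 39866098, so the cover stood at the ends. The strongest control peak, chr17:39752654-39757946, was 5293 bp wide with a fold of 4.53 and reached the last bases of the gene from the downstream side. The SNDX-50469 peak, chr17:39753434-39754181, lay inside it with a fold of 4.70, rank 2662 in its list.

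The body of IKZF3 itself held 1942 bp in control and 0 bp after treatment. The upstream 5 kb held 1623 bp and 0 bp, in 4 control peaks of which the nearest was 1786 bp from the 5′ end. The same stretch is the 5′ region of ZPBP2, a gene known from sperm development, whose 5′ end lies 3890 bp away and covered 1916 bp in control and 0 bp after SNDX-50469. These peaks cannot be given to one gene or the other. With 100 kb on both sides, 20669 bp were covered in control and 864 bp after SNDX-50469, with 4.18% kept.

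IKZF2 encodes Helios, which is expressed in regulatory T cells and in a part of other T cells, and lies on the minus strand at chr2:212999698-213152456. In control it had 2 peaks covering 583 bp, both within 2.09 kb of the 5′ end, and none over the rest of the gene. The stronger, chr2:213151708-213152104, was 397 bp wide with a fold of 3.25, rank 63418 in its list. The weaker, chr2:213150362-213150547, held the start whose upstream bases are printed above and had a fold of 2.87. No SNDX-50469 peak lay in the gene or within 100 kb of it, and the nearest was 513899 bp from the 5′ end. Neither control peak reached the −log10 p of the weakest SNDX-50469 peak, and no listed SNDX-50469 peak was that weak. Within 100 kb the control list covered 10908 bp. The strongest peak of this stretch, chr2:213231803-213236098, was 4296 bp wide with a fold of 3.88 and lay 79.3 to 83.6 kb upstream. ERBB4 and SPAG16, the nearest genes on either side, had no cover at their 5′ ends in either list.

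IKZF4 encodes Eos, known as a partner of FOXP3 in regulatory T cells, and lies on the plus strand at chr12:56007504-56038435. In control, 13 peaks covered 5969 bp of the gene with its flanks, and after SNDX-50469 1 peak covered 1873 bp. The kept share was 26.2%, and all of it lay past the 3′ end. The body held 2836 bp in control and 0 bp after treatment, and the upstream 5 kb 832 and 0 bp. The strongest control peak at the 5′ end, chr12:56007506-56008062, was 557 bp wide with a fold of 4.43, and the nearest SNDX-50469 peak to that start was 33679 bp away.

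The kept cover of IKZF4 lay around the start of its neighbour, and position alone cannot give it to one gene or the other. RPS26, a ribosomal protein gene, begins 3483 bp past the end of IKZF4, and the downstream 5 kb held 2301 bp in control and 1873 bp after SNDX-50469, with 68.0% kept. The strongest control peak there, chr12:56041876-56043678, had a fold of 6.14, and the SNDX-50469 peak, chr12:56041183-56043055, a fold of 3.97. On the other side SUOX, the sulfite oxidase gene, ends 1979 bp before IKZF4, and its 5′ end covered 2426 bp in control and 0 bp after treatment. With 100 kb on both sides, 61138 bp were covered in control and 10248 bp after treatment, with 15.5% kept. In that window the strongest control peak, chr12:56104555-56106473, lay at the start of PA2G4 with a fold of 7.46 and was covered along its whole length after SNDX-50469.

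IKZF5 encodes Pegasus, the most divergent member, with a known role in platelet formation, and lies on the minus strand at chr10:122990806-123008795. It had 1 control peak, chr10:123008076-123008730, which was 655 bp wide and lay 65 to 719 bp inside the gene. Its fold of 6.73, rank 2632 in its list, was higher than that of any control peak over the other members with 5 kb on both sides. After SNDX-50469, 2 peaks covered 1347 bp. The first, chr10:123007868-123008829, was 962 bp wide with a fold of 4.09, rank 8776 in its list. It held the whole control peak, so that the kept share was 100% (1 of 1 peak, Wilson 95% interval 20.7 to 100). As a percent of its list, the rank was 1.07% for the control peak and 16.2% for this peak. The second, chr10:122997970-122998354, was 385 bp wide with a fold of 3.46, lay 10.4 kb inside the gene and had no control cover. Its fold and its −log10 p of 3.93 equalled the smallest of the SNDX-50469 list, so it stood at the floor of that list.

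Of the IKZF5 starts, 123008687 lay in a peak of both lists and 123008795 in the SNDX-50469 peak, 65 bp from the control peak. The gene shares this region with ACADSB, an acyl-CoA dehydrogenase gene that is transcribed the other way from 211 bp upstream, so the peak cannot be given to one of them. PSTK, 416 bp past the 3′ end, covered 1137 bp at its 5′ end in control and 0 bp after SNDX-50469. With 100 kb on both sides, 3896 bp were covered in control and the same 1347 bp after treatment, and the kept share was 16.8%.

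Per length, the order of control cover was IKZF1 at 77.3% of the gene with its flanks, IKZF4 at 14.6%, IKZF3 at 7.35%, IKZF5 at 2.34% and IKZF2 at 0.358%. After SNDX-50469 it was IKZF1 at 7.17%, IKZF5 at 4.81%, IKZF4 at 4.58%, IKZF3 at 0.642% and IKZF2 at 0%. Without replicates, no spread can be set against the steps between neighbours in these orders.

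**Figure D4:**
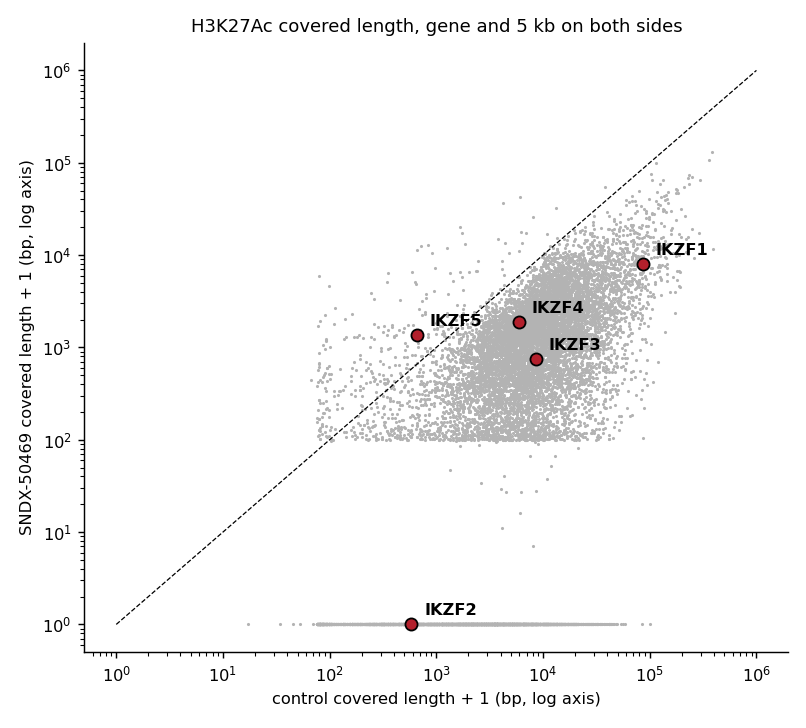
Length covered by H3K27Ac peaks in control (x axis) and after SNDX-50469 (y axis), each in bp plus 1 on a log axis, over each gene and 5 kb beyond its ends, with 1 grey point per protein-coding gene with control cover, the 5 members in red and a dashed line of equal length. IKZF5 lies above the line at 655 and 1347 bp, IKZF1, IKZF3 and IKZF4 lie below it, and IKZF2 lies on the floor of genes with no cover after treatment.

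Outside the family, the genes most like a member were taken as those with the smallest distance over 4 percentages, the percent covered at the 5′ end and over the rest in each list. Among 11266 genes, IKZF1 was nearest to ZNF865 and SIGLEC7, at 5.94 and 6.27 percentage points. IKZF3 was nearest to LRCH3 and SNAP47, at 0.603 and 0.755 percentage points, and neither of these kept any control length. IKZF4, among 11265 genes, was nearest to GCM2 and HSP90AA1, at 2.44 and 2.73 percentage points. IKZF2 and IKZF5 had no control cover over the rest of the gene and were not compared.

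Genes whose proteins work with the family were read the same way. All 14 NuRD subunit genes had control cover and all 14 were shorter after SNDX-50469, beside the 98.1% of all genes. At the 5′ end 13 had control cover and 10 SNDX-50469 cover, beside 67.3% and 37.4% of all genes. Over the gene with its flanks 3 kept no length, beside 44.8% of all genes, and the median kept share was 6.48%. At the 5′ end alone the median kept share was 22.1%, beside 1.85% over all genes with control cover there. Summed by length over those genes, 20.4% was kept. Median control cover at the 5′ end was 5221.5 bp for the NuRD genes and 3314 bp for all genes with such cover. GATAD2A, which links the remodelling and deacetylase modules of the complex, had the longest control cover, 71125 bp, and 7043 bp after treatment. HDAC2, one of its histone deacetylases, kept 40.4% of 5612 bp. CHD4, the remodelling ATPase, covered 15887 bp in control and 2116 bp after SNDX-50469.

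Of the 4 other corepressors, all were shorter after SNDX-50469, beside 98.1% of all genes. Their kept shares ran from 0 to 59.4% with a median of 13.6%. CTBP2, a corepressor bound by Ikaros, covered 38267 bp in control and 2741 bp after treatment. SIN3A, a scaffold for histone deacetylases, kept 59.4% of 9663 bp and covered 5313 bp at its 5′ end in control and 5710 bp after SNDX-50469.

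The 5 genes of the cereblon ubiquitin ligase were all shorter, again beside 98.1% of all genes, and 2 of them kept no length, beside 44.8%, with a median kept share of 10.8%. CUL4A, the cullin scaffold, kept 29.2% of 14071 bp. CRBN, the substrate receptor itself, covered 690 bp in control, all at its 5′ end, and 0 bp after SNDX-50469. Of 7 genes for other proteins that cereblon drugs degrade, 6 had control cover and all 6 were shorter, beside the same 98.1%. None of these 6 kept no length, beside 44.8% of all genes, and their kept shares ran from 14.1 to 40.3% with a median of 28.2%. At the 5′ end their median kept share was 45.1%, and over the rest of the gene it was 0%. Median control cover at the 5′ end was 6171 bp over the 7 genes, beside 3314 bp for all genes with such cover. ZBTB16, the PLZF zinc finger factor, covered 17352 bp in control and 2440 bp after treatment, ZFP91 kept 40.3% of 10152 bp, and SALL4 had no peak in either list.

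The label of the cell line was set beside markers, to be read against the 67.3% of all genes with 5′ cover in control and the 37.4% after SNDX-50469. All 8 myeloid marker genes had control cover at the 5′ end and 5 had it after SNDX-50469. The T cell genes CD3D, CD3E, CD3G and CD2 also had control cover there, 350 to 8491 bp, and none after treatment, and 3 of 4 B cell genes had it, with CD79A at 12129 bp over the gene in control and 5718 bp after SNDX-50469. Of the 4 erythroid and megakaryocytic genes 3 had it, 324 bp at GATA1, 542 bp at ITGA2B and 8125 bp at KLF1, and HBB had no peak. KLF1 covered 10660 bp over the gene in control and 3293 bp after treatment. GATA1 and ITGA2B had no 5′ cover after SNDX-50469. ALB and EPCAM had no peak, while KRT8 and CDH1 had 305 and 322 bp at the 5′ end in control. The presence of cover at a 5′ end in the control list thus did not separate myeloid from lymphoid genes. Its median length in control was 9340 bp for the myeloid, 4373 bp for the T cell and 3210 bp for the B cell genes. It was 433 bp for the erythroid and megakaryocytic and 152.5 bp for the epithelial and liver genes. After SNDX-50469 the median was 2839 bp for the myeloid genes and 0 bp for each of the other lists. The label names 1 cultured line, and whether other cells were present was not tested.

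The values moved with how the unequal lists were treated. With the −log10 p of the weakest SNDX-50469 peak as a limit for both lists, the kept share was 13.1% at IKZF1, 12.2% at IKZF3, 49.2% at IKZF4 and 100% at IKZF5, and IKZF2 had no control peak left. The median over the 12555 genes with control cover left was 9.80%, and 96.9% of them were lower after SNDX-50469. When the weakest control peaks were taken away until the covered lengths were equal, 3633 control peaks remained. IKZF1 then covered 5252 bp in control, all in the peak past its 3′ end, against 8002 bp after SNDX-50469, so that it was no longer the shorter after treatment. Only IKZF1 and IKZF5 had control cover left, and neither was shorter, while 80.0% of the 3448 genes with control cover left were. IKZF3 and IKZF4 had no control cover left and 748 and 1873 bp after SNDX-50469. The 34580-bp peak of IKZF1 missed this limit narrowly, with its −log10 p rounding to 10.0 as the limit itself does. In this setting IKZF5 again kept 100% of its 655 bp and IKZF1 kept 0%, beside a median of 46.9% over the 3448 genes. The IKZF1 control peak that was left shared 2986 bp with the SNDX-50469 list, all beyond the 5-kb flank and so outside this window. The limits were unlike, with a smallest −log10 p of 10.0 in control and 3.93 after SNDX-50469.

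**Figure D5:**
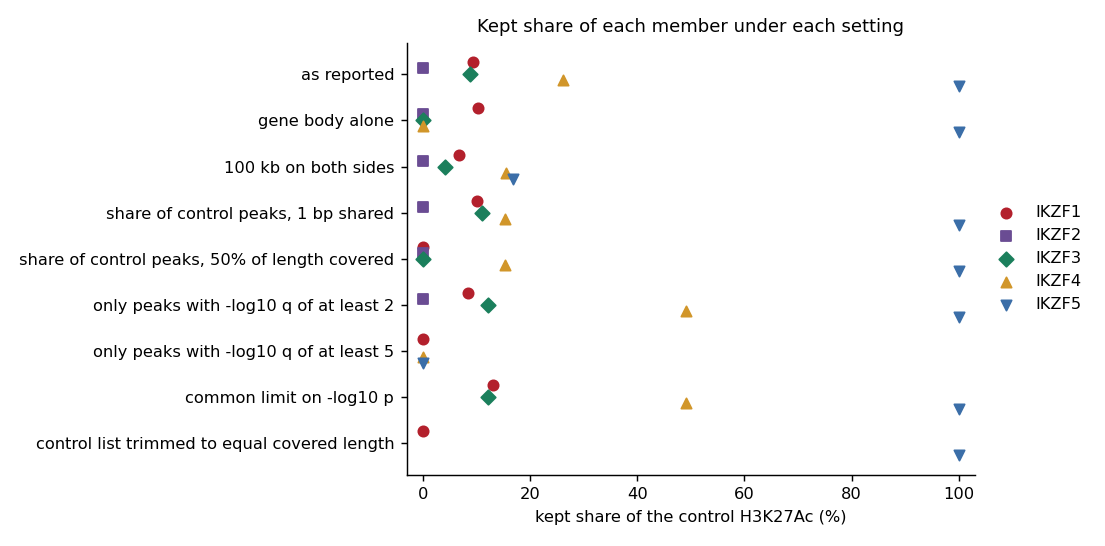
Kept share of the control H3K27Ac in percent (x axis) for each member under each setting (y axis), with 1 symbol per member and none where a member had no control peak left. IKZF5 stays at 100% in all settings but the 100 kb window, at 16.8%, and the limit on −log10 q of at least 5, at 0%.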

How the data were processed

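The submitters' processing notes name Trim Galore 0.6.5, Bowtie2 2.3.4.2, Picard 2.9.0, MACS2 2.1.2 and GRCh38, whereas the supplementary methods name TopHat2 and hg38; options and use of the input are not given in the sources used here. The authors deposited 1 broad peak list per library, without pooling. Each peak carries, from the authors, a ratio (its fold over background), the −log10 p and −log10 q, and a score that follows −log10 q and was not used. Folds are relative to each library's own background and were ranked within a list.

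Covered and shared lengths were computed with Python 3.11.15, numpy 2.4.6, pandas 2.3.3 and scipy 1.17.1, plotted with matplotlib 3.10.9, and tested on simulated lists. Strand came from the RefSeq promoter table (15842 genes) or by symbol from GENCODE (3833), whose coordinates were not used. Named genes are the members, their neighbours, the most alike genes and, per list, the gene with the longest control cover and that with the highest kept share among those with at least 5 kb. CHD4, CRBN, SALL4, PA2G4 and the markers named were added after values were seen.

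Members and lists were chosen with earlier results of these data known. The motifs, promoter window, IKZF1 stretches, flank medians and joined regions were chosen after values were seen. The Wilson intervals hold counting error alone and treat neighbouring peaks as independent, which they are not.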

Additional observations from a re-analysis of the deposited data

How the results depend on the processing

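Requiring −log10 q of at least 5 in both lists gave a kept share of 0% for the family, for its 5′ ends and for the rest of the genes, with a 5′ peak at 2 members in control and 0 after SNDX-50469. Across the genome, 9275 control peaks and 938 SNDX-50469 peaks reached this limit, so few SNDX-50469 peaks were left at any gene. Trimming the control list to equal covered length gave 100% at the 5′ ends, from IKZF5 alone, 0% over the rest, 1 member with a control 5′ peak and 0 members with lower covered length. Of the 3448 genes with control cover left after trimming, 80.0% were lower. Only IKZF1 and IKZF5 had control cover left there, and the direction turned at IKZF1, from 86343 bp in control against 8002 bp after SNDX-50469 to 5252 against 8002 bp. The smallest −log10 p was then 10.0 in control and 3.93 after SNDX-50469, so this direction compares unlike limits. Taking the innermost annotated start gave 4.99% at the 5′ ends and 1 member with a SNDX-50469 peak there. For the counts of 5′ peaks under these settings, no share over all genes was computed. Leaving out IKZF1, chosen after seeing the data, gave 20.7% over the rest, 14.2% at the 5′ ends and 18.8% in all, so that the order of 5′ ends and rest turned. The kept length at the 5′ ends was then that of IKZF5 alone. Over the rest it was flank past the 3′ ends of IKZF3 and IKZF4. Of the alternative values of the family's shares and counts, 39 stayed within their interval or within 1.5 times the count and 12 moved. For single members 57 of 70 stayed. Many of the latter could not move: at IKZF2 and at the 5′ ends of IKZF3 and IKZF4 no SNDX-50469 peak lay near, and the kept share was 0 throughout. Settings that left a member no control cover were not counted, and IKZF3 has no promoter entry to vary its start. The tally is therefore no measure of stability. The intervals are wide, and values inside them moved by over 1.5 times in places, as without IKZF1. The interval treats a share of length as a share of control peaks, which is an approximation. No paired analysis was possible because there was 1 library in each arm, and for the same reason no replicate could be left out. Depth was not known for either list, and peaks below each list's own limit could not be seen.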
